A study of Mus musculus with 12 samples.

Results

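Germ cell and developmental pluripotency genes were followed in mouse embryonic stem cells of the 129SvEv strain. The group was chosen by name: Prdm1, Prdm14, Tfap2c, Dppa2, Dppa3, Dppa4, Dppa5a, Ifitm1, Ifitm3 and Dazl. Of these 10 genes, 9 had a row among the 13508 named genes of the FPKM table, and all 9 were among the 12823 genes tested. FPKM is the number of fragments scaled to the length of the transcript and to the mapped fragments of the library. Prdm14, which encodes a transcriptional regulator of primordial germ cells, had no row and no locus over its annotated span, and is not analysed here.

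The libraries came from 4 cell lines, each with 3 dishes. Lines 18 and 26 were wild type (WT), and lines 25 and 39 were Arkadia -/-, called null below. Rnf111 encodes Arkadia, a ubiquitin ligase that removes inhibitors of SMAD signalling such as SnoN. All lines had been kept in 2i medium with LIF and then spent 24 h in N2B27 on fibronectin and 4 h in 10 µM SB431542 (SB), a blocker of the receptor kinases through which Activin, Nodal and TGFβ signal. A dish of each line was harvested in SB, and the other two were washed and given 10 ng/ml Activin A for 3 h or 6 h. The 6 groups were therefore WT in SB, WT at 3 h, WT at 6 h, null in SB, null at 3 h and null at 6 h, each with the same 2 lines as replicates. No dish received fresh medium without Activin, so the effect of Activin and those of inhibitor removal, washing and time cannot be told apart. A genotype was represented by 2 lines.

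In the mouse embryo, primordial germ cells arise from the epiblast under BMP and WNT signals. Prdm1 (Blimp1), Prdm14 and Tfap2c form the core of the transcription factor network that specifies them, and Dppa3 (Stella), Ifitm1 and Ifitm3 (Fragilis) are classical markers of the earliest germ cells. Dppa2, Dppa4 and Dppa5a are better known as markers of pluripotent cells: Dppa2 and Dppa4 are chromatin proteins of the SAP domain family that act as a pair, and Dppa5a is an RNA-binding protein of the KH domain family. Dazl is an RNA-binding protein of later germ cells. Activin and Nodal signal through SMAD2 and SMAD3 and help to keep the epiblast state from which germ cells can be induced.

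Rnf111 itself was at 3.19 to 4.27 FPKM in the WT libraries and at 0.539 to 0.855 FPKM in the null libraries, as the labels say. Summed FPKM ran from 578104 to 805752 per library. The estimated depth of the other libraries relative to null line 39 at 6 h, which was assumed to be the shallowest, ran from 1.22 to 1.81. All 10 embryonic stem cell markers were at 1 FPKM or more in every library, and their summed level was 1711 to 2405 FPKM. These markers include Dppa5a of the group, which by itself was at 532 to 1048 FPKM. Of 6 defining germ cell markers, 5 were in the table: Nanos3 stayed between 0 and 1.61 FPKM, whereas Ddx4 (6.11 to 12.1), Dnd1 (10.0 to 13.6), Mael (4.12 to 14.7) and Sycp3 (34.2 to 98.5) were detected in all libraries. Markers of fibroblasts summed to 8.22 to 18.9 FPKM and those of endoderm to 1.58 to 3.97 FPKM. In WT lines the fibroblast sum was 9.35 to 11.96 in SB, 9.56 to 11.005 at 3 h and 8.22 to 8.395 at 6 h. In null lines it was 11.38 to 16.23, 12.403 to 18.86 and 8.726 to 11.776 FPKM in turn. At 6 h it was below SB without overlap in WT lines, and the ranges overlapped in null lines. Null lines lay above WT lines without overlap at 3 h and 6 h but not in SB. The part of the fibroblast sum in the levels of Ifitm1 and Ifitm3 was not tested. Of 4 neural markers, 3 were in the table and summed to 28.2 to 32.9 FPKM in WT lines in SB, 20.7 at 3 h and 19.3 to 19.7 at 6 h, and to 25.9 to 32.7, 23.3 to 27.4 and 18.6 to 22.6 FPKM in null lines. This sum was lower than in SB without overlap in WT lines at both times and in null lines at 6 h, when Tfap2c, Ifitm1 and Ifitm3 were lower too, and its part in their levels was not tested. The cells were thus a population with an embryonic stem cell profile in which some germ cell genes were expressed. In such bulk RNA, fewer expressing cells and less RNA per cell cannot be told apart.

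Promoter sequence from RefSeq (GRCm38.p6) was at hand for 4 of the 10 genes, Prdm1, Ifitm1, Ifitm3 and Dazl. Windows of 300 bases were searched on both strands for letters bound by SMADs (CAGAC, and GTCTAGAC), by FOXH1 (AATCCACA and AATACACA), by STATs (TTCNNNGAA), for the E-box CACGTG and for the interferon response element. The stretch upstream of the Prdm1 start is shown because Prdm1 had the largest Activin response of the group. It lies at chr10:44458749-44458998 on the minus strand, and capitals mark CAGAC, found 43 to 39 bases before the start, and its reverse complement, 19 to 15 bases before it. Another CAGAC stood 43 to 47 bases after the start. The annotated gene reaches further upstream, to chr10:44528501, and which start was in use was not tested.
Prdm1 upstream: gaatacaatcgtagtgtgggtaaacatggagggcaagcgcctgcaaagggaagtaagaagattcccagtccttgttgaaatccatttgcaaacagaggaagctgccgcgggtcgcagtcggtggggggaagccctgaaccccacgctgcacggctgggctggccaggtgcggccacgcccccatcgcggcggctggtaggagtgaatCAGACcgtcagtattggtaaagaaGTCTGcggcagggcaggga
CAGAC on either strand was held by 49.6% of the 32817 promoter windows of the same length, so its presence is common.
The bases around the Ifitm3 start are shown because Ifitm genes are classical interferon-induced genes and genes of the interferon list below rose. The stretch is chr7:141010723-141010752 on the minus strand, and capitals mark the interferon response element (bases 3 to 12 after the start) and the STAT letters TTCNNNGAA (bases 14 to 22).
Ifitm3 start: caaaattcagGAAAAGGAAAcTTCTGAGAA
A further interferon response element lay at bases 20 to 29 and overlapped the STAT letters, and CAGAC stood at bases 45 to 49. The element was held by 3.43% of all windows and the STAT letters by 8.29%. None of the searched letters were found in the Ifitm1 window. In the Dazl window the reverse complement of CAGAC was found 187 to 183 bases before the start. These are matches of letters in the windows, and binding was not measured.

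The group spanned almost 3 orders of magnitude on the FPKM scale, which is scaled to length. Dppa5a was the most abundant, with a mean of 827 FPKM over the 12 libraries. It was followed by Ifitm1 (169), Dppa4 (70.7), Ifitm3 (47.2), Dppa2 (26.0), Dppa3 (8.84), Prdm1 (3.04), Tfap2c (1.53) and Dazl (1.38). Dppa5a lay above Ifitm1, Ifitm1 above Dppa4, Ifitm3 above Dppa2 and Dppa2 above Dppa3 in 12 of 12 libraries. Dppa4 lay above Ifitm3 in 10 of the 12 libraries and Dppa3 above Prdm1 in 11. The order at the low end did not hold beyond the spread: Prdm1 lay above Tfap2c in 8 libraries and Tfap2c above Dazl in 6.

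**Figure D1:**
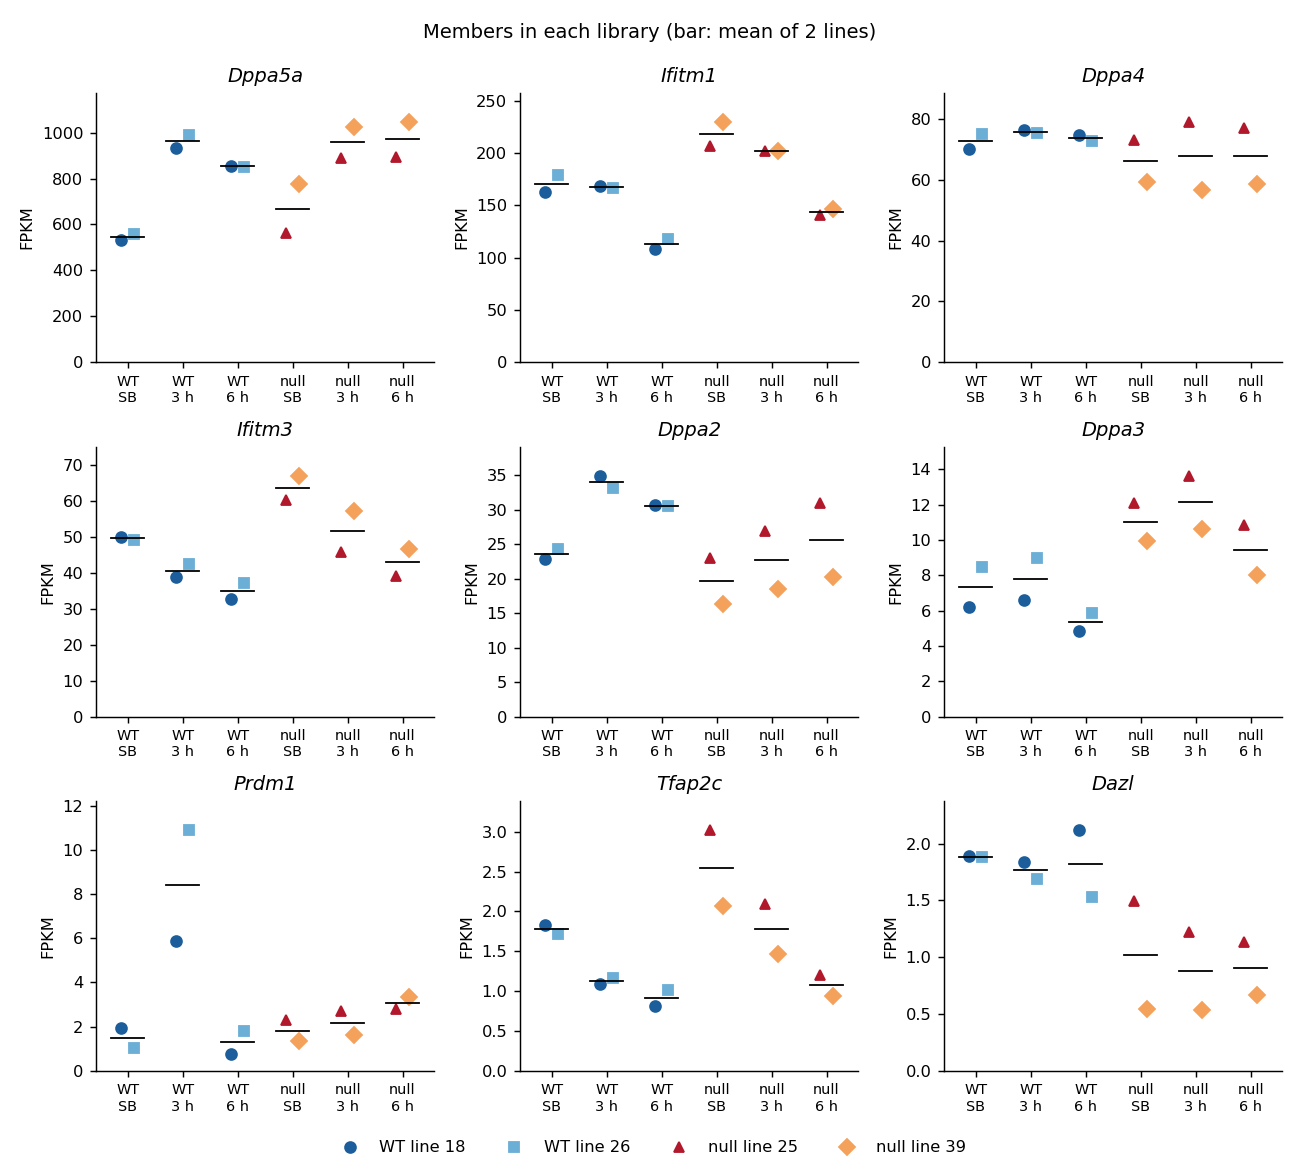
FPKM (vertical axes, each starting at 0) of the 9 measured genes by group (horizontal axes). Each point is a library, its colour and shape give the cell line, and bars are means of the 2 lines. Prdm1 reached 5.89 and 10.9 FPKM in the WT lines at 3 h and was at 3.33 FPKM or less in every other library.

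Among the transcription factors that specify germ cells, Prdm1 rose in WT lines at 3 h of Activin and at 6 h its values again overlapped those in SB, and Tfap2c was lower after Activin in every line. Prdm1 encodes a zinc finger repressor that shuts down somatic genes in germ cell precursors. Before Activin, WT lines 18 and 26 had 1.95 and 1.02 FPKM, after 3 h 5.89 and 10.9, and after 6 h 0.777 and 1.80. Null lines 25 and 39 had 2.31 and 1.34 FPKM in SB, 2.69 and 1.64 at 3 h, and 2.79 and 3.33 at 6 h. Both WT libraries at 3 h stood above all others, and the remaining 10 libraries lay between 0.777 and 3.33 FPKM.

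Prdm1 rose in the WT lines at 3 h from 1.49 ± 0.661 to 8.40 ± 3.54 FPKM (SD, n = 2), a difference of 1.89 on the log2(FPKM + 1) scale (SE 0.336, adjusted p = 0.0073). It then fell by 2.02 between 3 h and 6 h (adjusted p = 0.022). Line 18 rose by 1.22 and line 26 by 2.56 log2 units, and they fell by 1.95 and 2.09 between 3 h and 6 h. The rise was not called without line 26 (adjusted p = 0.195), and the later fall was not called when any of the 4 lines was left out (adjusted p from 0.051 to 0.36). In the null lines the change at 3 h was 0.16 in line 25 and 0.17 in line 39 (adjusted p = 0.77), and that at 6 h was 0.54 on average (adjusted p = 0.29). The difference between genotypes in the 3 h response was −1.72 (SE 0.475, unadjusted p = 0.0058, adjusted p = 0.74), so it was not called. The Prdm1 locus of the table (chr10:44437394-44441361, mm10) covered 4.34% of the annotated gene but the last 3 of the 8 exons of transcript Prdm1-201, which hold 62.1% of its exonic bases. The value therefore describes the 3′ part of the gene, and the promoter shown above lies outside the measured stretch.

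Tfap2c (chr2:172549581-172558609), an AP-2 transcription factor that acts downstream of Prdm1 in germ cells and is also active in trophoblast, went the other way. It was at 1.83 and 1.72 FPKM in the WT lines in SB, 1.09 and 1.17 at 3 h, and 0.807 and 1.01 at 6 h. The null lines had 3.02 and 2.06, then 2.10 and 1.47, then 1.20 and 0.938 FPKM. Each of the 4 lines was lower at 3 h than in SB and lower again at 6 h. At 6 h the fall was 0.76 log2 units in the null lines (SE 0.159, adjusted p = 0.018), and the difference in the WT lines was −0.54 (adjusted p = 0.051). At 3 h the differences were −0.38 in WT and −0.34 in null lines (adjusted p = 0.11 and 0.18). With the cell line as a block, which compares each line with itself, the WT difference at 6 h (adjusted p = 0.0081) and both at 3 h (0.024 and 0.043) were called, as was that between 3 h and 6 h in null lines (−0.42, adjusted p = 0.041 against 0.17 without the block). The call in the null lines at 6 h was lost without either WT line, while the difference in the null lines stayed at −0.76. Of 8 trophoblast markers, 7 were in the table, and they summed to 60.2 to 79.3 FPKM in the WT libraries and 90.0 to 133 FPKM in the null libraries, and their part in the level of Tfap2c was not tested.

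Among the Dppa genes, Dppa5a rose after Activin, and Dppa2, Dppa3 and Dppa4 were not called in the fit of all 6 groups without a block. Dppa5a (chr9:78366871-78368331) was at 532 and 561 FPKM in the WT lines in SB, 932 and 991 at 3 h, and 855 and 852 at 6 h. Null lines 25 and 39 had 562 and 777 FPKM in SB, 890.2 and 1025 at 3 h, and 894 and 1048 at 6 h. Within each genotype, both Activin groups lay above the SB group without overlap. The rise was 0.81 log2 units in WT at 3 h (SE 0.153, adjusted p = 0.0092), 0.64 in WT at 6 h (adjusted p = 0.026) and 0.55 in null at 6 h (adjusted p = 0.048). In null lines at 3 h the difference was 0.53 (adjusted p = 0.052, and 0.0046 with the cell line as a block). Without WT line 18 or WT line 26, the WT rise was 0.82 and 0.81 at 3 h and 0.60 and 0.68 at 6 h. The null rise at 6 h stayed at 0.55. These fits leave 1 line in each WT group and did not call these rises, and they called far fewer of all genes too.

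Summed FPKM was higher in both Activin libraries than in the SB library of each of the 4 lines. Dppa5a made up 0.0921 to 0.0959% of the summed FPKM of the WT libraries in SB and 0.131 to 0.137% at 3 h. After quantile normalization, which gives every library the same distribution, the rises of Dppa5a were smaller and were all called, at 0.41 and 0.37 in WT and 0.26 and 0.29 in null lines (adjusted p = 0.0052, 0.0091, 0.037 and 0.027). The annotation lists the near-copies Dppa5b and Dppa5c and a pseudogene of Dppa3, so reads of Dppa5a and Dppa3 could be shared with them and these values are uncertain in that respect.

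Dppa2 (named locus chr16:48310008-48320307, all exons of transcript Dppa2-201) was at 22.9 and 24.3 FPKM in the WT lines in SB, 34.9 and 33.2 at 3 h, and 30.7 and 30.5 at 6 h. In the null lines the values were 23.0 and 16.3, then 26.9 and 18.5, then 31.0 and 20.2 FPKM. Each of the 4 lines was higher at both times than in SB, but null line 39 was low throughout. The differences were 0.51 and 0.36 log2 units in WT and 0.19 and 0.35 in null lines at 3 h and 6 h (SE 0.226, adjusted p = 0.13, 0.28, 0.60 and 0.31). With the cell line as a block all 4 were called (adjusted p = 0.0011, 0.0036, 0.035 and 0.0044). With only the groups compared in the fit, the differences in WT lines were called (adjusted p = 0.0073 and 0.016) and those in null lines were not. The difference between genotypes in the 3 h response was −0.32 (adjusted p = 0.93).

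A separate, unnamed locus of 518 bp upstream of Dppa2 (chr16:48303785-48304302) overlapped 299 bp of the annotated first exon of a second transcript, Dppa2-202 (48303908 to 48304206), whose start lies 6569 bp upstream of that of Dppa2-201. It was looked at after the data had been seen, because it lies within the annotated gene. It was at 0.302 and 0.247 FPKM in the WT lines in SB, 3.23 and 3.13 at 3 h, and 2.77 and 2.68 at 6 h. In null lines 25 and 39 it was at 0.260 and 0 FPKM in SB, 0.896 and 0.854 at 3 h, and 2.12 and 1.19 at 6 h. All Activin libraries lay above all SB libraries, and at each time both WT lines lay above both null lines.

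Added to the fit over all genes, the upstream locus rose by 1.71 in WT at 3 h (SE 0.171, adjusted p = 0.00038), by 1.55 in WT at 6 h (adjusted p = 0.00072), by 0.74 in null at 3 h (adjusted p = 0.025) and by 1.22 in null at 6 h (adjusted p = 0.0029). At 3 h it was lower in null than in WT lines by −1.16 (adjusted p = 0.037). This call was lost without WT line 18, WT line 26 or null line 39, where the difference was −1.14, −1.17 and −1.14. It was also lost with a pseudocount of 0.1 (adjusted p = 0.25) and with only the groups compared in the fit (0.10). With the cell line as a random effect, which lets libraries of a line correlate, the adjusted p was 0.032. Without WT line 18 or WT line 26 the rises in WT lines were 1.73 and 1.70 at 3 h and 1.56 and 1.53 at 6 h, and were not called. The rise in null lines at 3 h was not called in these fits either. With only the groups compared in the fit, the rises in null lines were not called (adjusted p = 0.15 at 3 h and 0.13 at 6 h). Without null line 25 the genotype difference at 6 h was −0.76 and was called. The locus reached 1 FPKM in 6 libraries, all with Activin, so it passed the filter on low values through the condition in which it was high, and its calls are a description. The difference between genotypes in the 3 h response was −0.97 (unadjusted p = 0.0032, adjusted p = 0.73). Whether its reads belong to Dppa2-202 was not tested, since neither the strand nor the splicing of its reads can be seen in FPKM values.

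**Figure D2:**
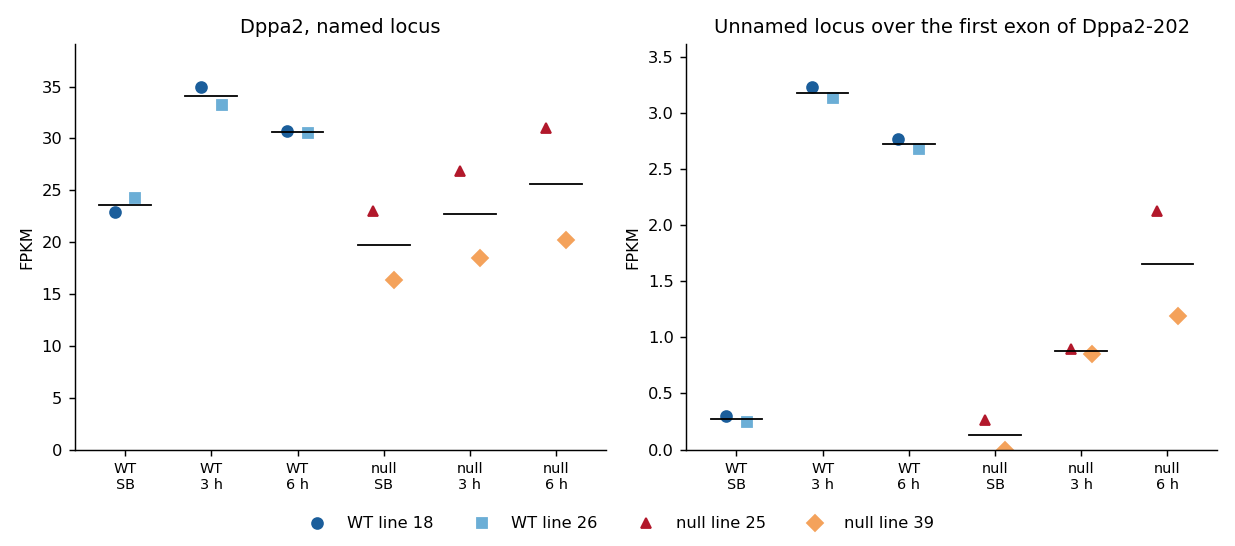
FPKM (vertical axes) at the named Dppa2 locus (left) and at the unnamed upstream locus over the first exon of Dppa2-202 (right) by group (horizontal axes). Each point is a library and bars are means of the 2 lines. The upstream locus went from 0.302 FPKM or less in SB to 3.23 and 3.13 FPKM in WT lines at 3 h, whereas the named locus was already at 22.9 and 24.3 FPKM in SB.

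Dppa4 (chr16:48283389-48294619), the partner of Dppa2 and its neighbour at a distance of 15389 bp, stood at 70.2 and 75.0 FPKM in the WT lines in SB, 76.4 and 75.3 at 3 h, and 74.8 and 72.6 at 6 h. The null lines stood at 73.2 and 59.4, then 79.1 and 56.5, then 76.9 and 58.6 FPKM. Line 39 was again the low line in all 3 treatments. No Activin comparison moved Dppa4 by more than 0.06 log2 units, and none was called with or without the block. Of 15 genes active at the two-cell stage that have been placed downstream of Dppa2 and Dppa4, such as members of the Zscan4 family, 0 had a row in the table.

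Dppa3 (chr6:122626360-122630278), a maternal and germ cell factor that protects DNA from changes in methylation, was at 6.19 and 8.49 FPKM in WT lines in SB, 6.61 and 8.99 at 3 h, and 4.86 and 5.84 at 6 h. In null lines 25 and 39 it was at 12.1 and 9.95, then 13.6 and 10.6, then 10.8 and 8.03 FPKM. Each line was slightly higher at 3 h and lower at 6 h than in SB. The difference between 6 h and SB was −0.38 in WT and −0.21 in null lines, and that between 6 h and 3 h was −0.46 and −0.33 (SE 0.206, adjusted p from 0.22 to 0.51). With the block, the difference at 6 h in WT (adjusted p = 0.0066) and both differences between 6 h and 3 h (0.018 in WT, 0.026 in null) were called. Dppa3 lies between Gdf3 and Nanog, which rose: Nanog, 77225 bp away, rose by 4.15 in WT and 3.49 in null lines at 3 h, and Gdf3, 16210 bp away, by 0.43 and 0.26 (adjusted p = 0.0048 and 0.038). The glucose transporter gene Slc2a3, on the far side of Nanog, fell by 0.48 and 0.40 (adjusted p = 0.0091 and 0.023).

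The nearest tested neighbour of Dppa5a moved with it, whereas its other neighbours did so in part or not at all. Ooep, a gene of the oocyte and early embryo of the same KH domain family, lies 8718 bp from Dppa5a. It was at 8.71 and 9.13 FPKM in WT lines in SB, 15.3 and 16.0 at 3 h and 14.1 and 14.4 at 6 h. In null lines it was at 8.75 and 11.6, then 15.2 and 13.9, then 14.5 and 16.4 FPKM. Its rise was 0.75 and 0.62 in WT and 0.48 and 0.56 in null lines (adjusted p = 0.0042, 0.011, 0.029 and 0.018). Of all genes, 12.6, 9.59, 6.5 and 7.87% were called higher in these comparisons. Against SB, Ddx43 was called only in WT lines at 3 h (0.44, adjusted p = 0.031). Gsta4 and C920006O11Rik were not called. Around Tfap2c, Cass4 fell by 1.27 and 0.83 in WT and 0.64 and 0.81 in null lines (adjusted p at most 0.023). Bmp7 fell by 0.58 in WT and 0.60 in null lines at 6 h (adjusted p = 0.048 and 0.049), and Rtfdc1 and Rae1 were not called.

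Ifitm1 and Ifitm3, transmembrane proteins that block virus entry and mark early germ cells, both fell by 6 h of Activin in both genotypes. Ifitm1 (chr7:140967472-140969909) was at 163 and 179 FPKM in WT lines in SB, 168 and 167 at 3 h, and 108 and 118 at 6 h. The null lines had 207 and 229.9, then 202 and 202, then 140.3 and 146 FPKM. All 6 h libraries were below all SB and 3 h libraries. Ifitm1 fell by 0.59 log2 units in WT (SE 0.078, adjusted p = 0.0019) and by 0.60 in null lines (adjusted p = 0.002), and between 3 h and 6 h it fell by 0.56 and 0.49 (adjusted p = 0.01 and 0.015). At 3 h the difference from SB was −0.03 in WT and −0.11 in null lines, neither called. After quantile normalization it was −0.29 and −0.28 and was called (adjusted p = 0.032 and 0.046). Without WT line 18 or WT line 26 the WT difference at 6 h was −0.59 in both fits. That between 3 h and 6 h was −0.49 and −0.63, and none of these was called. The fall between 3 h and 6 h in null lines lost its call when any of the 4 lines was left out. Its size was −0.46 without line 25 and −0.52 without line 39.

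Ifitm3 (chr7:141009587-141010888), 39678 bp from Ifitm1, was at 50.1 and 49.1 FPKM in WT lines in SB, 38.7 and 42.5 at 3 h, and 32.8 and 37.2 at 6 h. Null lines 25 and 39 had 60.3 and 67.0, then 45.9 and 57.3, then 39.3 and 46.8 FPKM. Each line was lower at 3 h than in SB, and lower still at 6 h. The fall at 6 h was 0.49 in WT (SE 0.124, adjusted p = 0.031) and 0.56 in null lines (adjusted p = 0.023). At 3 h the differences were −0.28 and −0.30 (adjusted p = 0.13 in both, and 0.014 in both with the block). The block also called the difference between 3 h and 6 h in null lines (−0.25, adjusted p = 0.045 against 0.27 without it). Leaving out WT line 18 or WT line 26 ended the calls of Ifitm3 at 6 h in both genotypes. The WT difference was then −0.39 and −0.60 in turn, and the null difference stayed at −0.56.

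The loci around them were not alike. The locus whose name joins Ifitm2 and Ifitm5 stood at 217 and 207 FPKM in the WT lines in SB and at 206 and 196 at 6 h, and its change in WT lines was 0.15 at 3 h and −0.07 at 6 h, neither called. Ifitm6, 3750 bp from Ifitm3 and measured at a partial locus, was at 2.91 and 1.27 FPKM in WT lines in SB and at 0.572 and 0.216 at 6 h, a difference of −1.11 (adjusted p = 0.056), and in null lines at 6 h the difference was −0.04. Athl1, 19810 bp from Ifitm1, fell by 0.58 in WT lines at 6 h (adjusted p = 0.037) and differed by −0.23 in null lines (adjusted p = 0.32). B4galnt4, 49894 bp from Ifitm3, fell by 0.37 in WT lines at 3 h (adjusted p = 0.034), and at 6 h its difference was −0.18 (adjusted p = 0.25). Of the 4 further loci around the pair, 1 was thus called lower in WT lines at 3 h and 1 at 6 h, beside 9.83 and 6.31% of all genes tested.

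The interferon-induced genes, a list to which Ifitm genes are usually counted, did not fall against SB. The list was chosen with earlier results of these data known, so its counts are a description. Of 19 listed genes, 10 had a row and 9 were tested. Of 9 such genes tested, 6 rose and 0 fell in WT lines at 3 h, 7 rose and 0 fell at 6 h, and in null lines 4 and then 7 rose and 0 fell. Of all genes tested, 12.6, 9.59, 6.5 and 7.87% were called higher in these 4 comparisons in turn. Isg15 and Psmb8 reached 1 FPKM, the level that genes had to reach in 2 libraries to be tested, only in Activin libraries. They were therefore tested because they were high there, and without them 4, 5, 2 and 5 of 7 rose. Between 3 h and 6 h, 4 of the 9 rose and 1 fell in each genotype (3 and 1 of the 7 without these 2). Of all genes, 1.22% were then called higher and 1.31% lower in WT lines, and 2.78 and 1.86% in null lines. The list's median change at 6 h was 1.53 in WT and 1.14 in null lines, beside 0.02 and 0.01 over all genes tested. Irf1, a transcription factor of the interferon response, went from 3.80 ± 0.266 to 81.1 ± 5.93 FPKM in WT lines at 3 h (SD, n = 2). Between 3 h and 6 h Irf1 changed by −0.80 in WT lines (adjusted p = 0.0048). Parp9 rose by 2.00 in WT and 1.44 in null lines at 6 h, and Ifi35 by 1.77 and 1.05 (adjusted p at most 0.0013). Psmb8, a subunit of the immunoproteasome, was higher by 2.66 in WT and 2.14 in null lines at 6 h. That is a description, since Psmb8 passed the filter through Activin libraries alone. Between genotypes 1 of the 9 was called, Psmb8 at 3 h, which was lower in null lines by −1.14 (adjusted p = 0.048, and 0.052 with the cell line as a random effect). Of all genes, 0.382% were called in that comparison. Psmb8 is not among the 7 genes above, so this call too is a description.

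**Figure D3:**
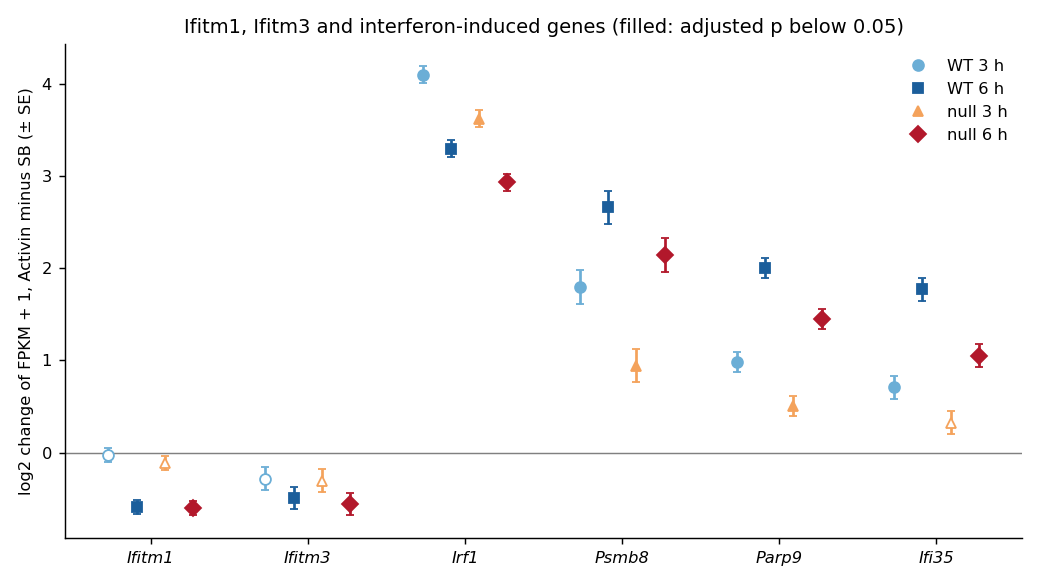
Change from SB in log2(FPKM + 1) (vertical axis, with standard errors) of Ifitm1, Ifitm3 and 4 interferon-induced genes (horizontal axis) in WT and null lines at 3 h and 6 h; filled points have an adjusted p below 0.05. At 6 h Ifitm1 and Ifitm3 lay between −0.60 and −0.49, whereas Irf1, Psmb8, Parp9 and Ifi35 lay between 1.05 and 3.30. Psmb8 passed the filter through Activin libraries alone, so its points are a description.

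Dazl (chr17:50279389-50293596) was not called in any Activin comparison. It was at 1.89 and 1.88 FPKM in the WT lines in SB, 1.84 and 1.69 at 3 h, and 2.12 and 1.53 at 6 h. In the null lines the values were 1.49 and 0.548, then 1.22 and 0.532, then 1.14 and 0.667 FPKM. Null line 39 was the lowest in all 3 treatments and both null lines were below both WT lines. Its differences from SB lay between −0.09 and −0.04 log2 units. At such levels the log2(FPKM + 1) scale understates changes.

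In WT lines 2 of the 9 genes were called at 3 h (Prdm1 and Dppa5a, both higher), a share close to the 22.5% of all genes tested that were called. At 6 h 3 were called (Dppa5a higher, Ifitm1 and Ifitm3 lower), against 15.9% of all genes, and between 6 h and 3 h 2 were called (Prdm1 and Ifitm1, both lower), against 2.53%. In null lines 0 were called at 3 h (against 13.6% of all genes; 2 of the 9 and 31.7% of all genes had an unadjusted p below 0.05), 4 at 6 h (Dppa5a higher, Ifitm1, Ifitm3 and Tfap2c lower, against 13.4%) and 1 between 6 h and 3 h (Ifitm1, against 4.63%). The group's median change was 0.06 at 3 h and −0.13 at 6 h in WT and 0.02 and −0.06 in null lines, beside −0.01, 0.02, −0.01 and 0.01 over all genes. With the cell line as a block, 5, 6 and 3 genes were called in the 3 WT comparisons and 4, 5 and 4 in the 3 null comparisons, where 37.2, 33.9, 6.64, 29.5, 31.4 and 13.4% of all genes were called. The comparisons at 3 h and 6 h share their SB libraries and are not independent of each other.

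**Figure D4:**
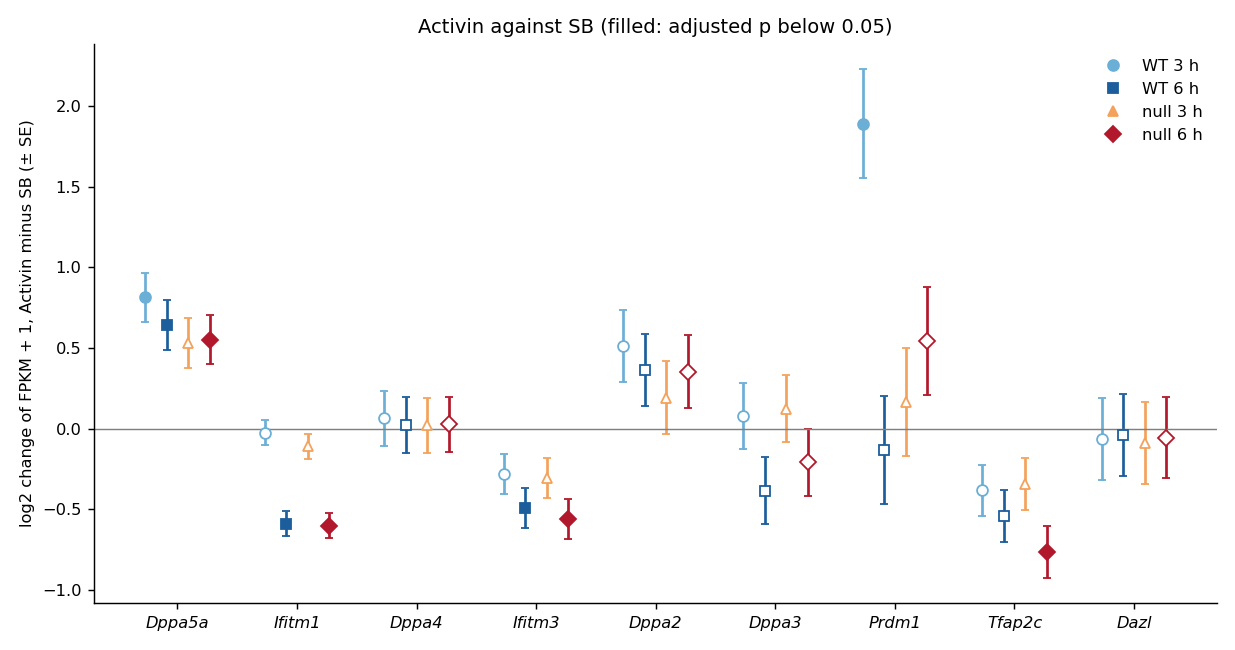
Change from SB in log2(FPKM + 1) (vertical axis, with standard errors) of the 9 genes (horizontal axis) in WT and null lines at 3 h and 6 h; filled points have an adjusted p below 0.05. Prdm1 in WT lines at 3 h, at 1.89, was the largest change, and the changes of Dppa4 and Dazl lay between −0.09 and 0.06.

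Between genotypes, Dppa3, Ifitm1 and Ifitm3 were higher and Dazl was lower in both null lines than in both WT lines in each treatment. Lines were apart in this way for 4 of the 9 genes, beside 15.2% of all genes tested. Dppa3 differed by 0.53 log2 units in SB, by 0.58 after 3 h and by 0.71 after 6 h (SE 0.206, adjusted p = 0.31, 0.30 and 0.22). Ifitm1 differed by 0.35, 0.27 and 0.34 (adjusted p = 0.12, 0.22 and 0.15), Ifitm3 by 0.35, 0.33 and 0.29 (0.29, 0.32 and 0.34), and Dazl by −0.56, −0.58 and −0.57 (0.34, 0.38 and 0.34). None of the 9 genes was called under any of the 3 treatments, where in turn 0.312, 0.382 and 0.211% of all genes were called, and 3, 7 and 4 of the 9 had an unadjusted p below 0.05, beside 14.9, 12.9 and 14.7% of all genes. On the means of the lines, with the line as the unit, 0 genes of the group and 0% of all genes were called, and 4 of the 9 and 13.3% of all genes had an unadjusted p below 0.05. The difference between genotypes in the response was called for 0% of all genes at 3 h and 0% at 6 h, with 654 and 382 genes (5.1 and 2.98%) at an unadjusted p below 0.05. Among the group, 1 gene had an unadjusted p below 0.05 at 3 h (Prdm1) and 0 at 6 h. With the cell line as a random effect, 0 genes of the group were called in any genotype comparison. With the block, 0 were called in a difference in response.

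The null lines were not alike. Over its 3 libraries line 39 lay below line 25 by −0.53 log2 units in Dppa2, −0.39 in Dppa4 and −0.53 in Dazl, whereas the WT lines differed by −0.00, 0.01 and −0.13 in these genes. Germ cell markers detected in all libraries did not share 1 order. Ddx4 and Mael, genes of the piRNA pathway, were lower in line 39 than in line 25 in all 3 treatments (by −0.38 and −0.77 on average), whereas Dnd1, an RNA-binding protein of germ cells, and Sycp3, of the synaptonemal complex, were higher in all 3 (by 0.11 and 1.16). Without line 25, 6, 2 and 6 genes of the group were called between genotypes in the 3 treatments in turn, and 5 on the line means, where 16, 1.06, 11.8 and 9.3% of all genes were called. Dppa2 was called in each of these (−0.50, −0.85 and −0.58, adjusted p = 0.008, 0.024 and 0.01). Without line 39, 0 were called. The calls without line 25 compare line 39 alone with the WT lines, and with 2 lines clone and genotype cannot be told apart.

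**Figure D5:**
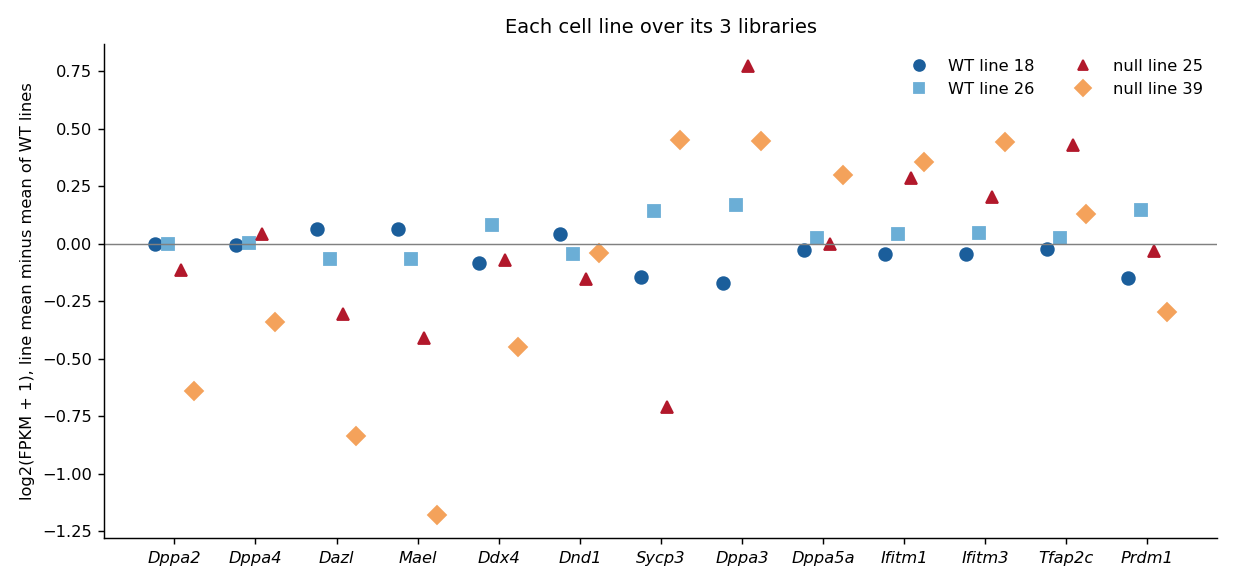
Mean log2(FPKM + 1) of each line over its 3 libraries, as the difference from the mean of the 2 WT lines (vertical axis), for the 9 genes and the germ cell markers Mael, Ddx4, Dnd1 and Sycp3 (horizontal axis). Null line 39 lay at −0.64 in Dppa2, −0.34 in Dppa4 and −0.83 in Dazl, whereas null line 25 lay at −0.12, 0.04 and −0.31.

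Of 25 tested partners of germ cell specification and early germ cell genes, 9 rose and 4 fell in WT lines at 3 h, and 5 rose and 4 fell at 6 h. In null lines 5 rose and 1 fell at 3 h, and 4 rose and 3 fell at 6 h, and 0 were called between genotypes. In these 4 comparisons with SB 22.5, 15.9, 13.6 and 13.4% of all genes were called. T, Wnt3, Nanos3 and Fut4 reached 1 FPKM only in Activin libraries and so were tested because they were high there. Without them 6, 3, 3 and 2 of 21 rose, and 4, 4, 1 and 3 fell. The median change of the 25 genes was 0.20 at both times in WT lines and −0.02 and 0.01 in null lines, beside −0.01, 0.02, −0.01 and 0.01 over all genes. Nanog, whose product supports both pluripotency and germ cell fate, went from 3.70 ± 0.358 to 82.5 ± 3.66 FPKM in WT lines at 3 h. Wnt3, the WNT ligand that makes the epiblast competent, rose by 2.11 in WT and 1.64 in null lines at 3 h, and T (Brachyury), a mesoderm factor that acts on Prdm1 and Prdm14, by 1.07 and 1.09. T was still higher at 6 h (1.74 and 1.78), when Prdm1 in WT lines overlapped its SB values. Nanos3, an RNA-binding protein of migrating germ cells measured at a partial locus, was at 0 and 0.306 FPKM in WT lines in SB and at 0.857 and 1.61 at 3 h (log2 difference 0.95, adjusted p = 0.037). It reached 1 FPKM in 2 libraries, both of WT lines with Activin.

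Of 22 tested genes of later germ cells and meiosis, 1 rose and 0 fell in each of the 4 Activin comparisons with SB, a share below the 22.5, 15.9, 13.6 and 13.4% of all genes called. It was Meioc, which keeps germ cells in meiotic prophase, with 0.38 and 0.48 in WT and 0.39 and 0.51 in null lines (adjusted p from 0.013 to 0.033). Of 7 tested DNA methylation enzymes and their partners, 2 fell in WT lines at 3 h, 4 in WT lines at 6 h and 2 in null lines at 6 h, and 0 rose. Of all genes, 9.83, 6.31 and 5.53% were called lower in these comparisons. At 6 h Dnmt3l fell by 0.60 in WT and 0.61 in null lines, Uhrf1 by 0.47 and 0.48 (adjusted p at most 0.02), and Dnmt1 by 0.42 and Dnmt3b by 0.30 in WT lines (adjusted p = 0.022 and 0.023). In null lines the differences of Dnmt1 and Dnmt3b at 6 h were −0.31 and −0.22 (adjusted p = 0.062 and 0.066, and 0.013 and 0.018 with the block). Of 8 relatives of the Dppa and Ifitm genes, only Ifitm6 was tested, at a partial locus, and it was called in 0 comparisons.

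The genes whose profile was most like that of each member were taken by Pearson's r of log2(FPKM + 1) over the 12 libraries, which share cell lines and treatments. For Prdm1 they were Wdfy4 (0.91), Gm19426 (0.85) and Zim3 (0.85), for Tfap2c Ccnd3 (0.95), Arhgap1 (0.95) and Heatr3 (0.94), and for Dppa2 Herc3 (0.94), Apod (0.94) and Tmem64 (0.92). Wdfy4, Zim3 and Ccnd3 were measured at partial loci. Wdfy4 and Zim3 had means of only 0.604 and 0.335 FPKM, so their r rests on low values. Dppa3 was most like the imprinted growth factor gene Igf2 (0.95), Arpin (0.91) and Hspb8 (0.91). Dppa4 was most like Syce1 (0.94), a gene of the synaptonemal complex, Lacc1 (0.93) and 9130204L05Rik (0.92). Dppa5a was most like the calmodulin gene Calm2 (0.99), D030056L22Rik (0.99) and Pmpcb (0.99). Ifitm1 was most like Gm6792 (0.95), Calca (0.95) and Gbas (0.94), and Ifitm3 most like Mip (0.96), Acaa1a (0.95) and Eno3 (0.94). For Dazl they included the joined locus of Repin1 and Zfp775 (0.96) and Smtnl1 (0.95). Among the members themselves, r was 0.87 for Ifitm1 with Ifitm3, 0.84 for Dppa2 with Dppa4, 0.82 for Dppa4 with Dazl and −0.86 for Dppa2 with Ifitm3.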

How the data were processed

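RNA-seq libraries from 12 dishes (4 lines, 3 treatments) were prepared from poly(A) RNA with random hexamers and read as 50 bp single reads, per the labels' protocols. The authors deposited FPKM values per locus with a status flag, per the file headers; mm10 is the build in the submitters' processing notes. For the aligner, the quantifier and the use of strand nothing is stated in the sources used here. Read totals are unknown; relative depth was taken from the smallest steps between low FPKM values.

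The table held 17446 loci. Of these, 2666 had no name, 27 had a status other than OK, and 1245 were further loci of a name, of which the locus with the highest mean was kept; 226 names joined several symbols. Genes that reached an FPKM of 1 in 2 or more libraries entered limma 3.58.1 in R 4.3.3 on log2(FPKM + 1), with 6 group means and a variance trend. Two-sided p-values were adjusted over all genes tested by the Benjamini-Hochberg method, and an adjusted p below 0.05 was a call; each adjusted p is from this fit unless a setting is named. The scale understates changes of low genes. Each group is 2 lines, and the spread between lines is pooled over the 6 groups. A p-value of a WT comparison thus also rests on how far the null lines differ, and the reverse. Genotype comparisons within a treatment rest on 2 lines per genotype, and an exact two-sided permutation test of 2 against 2 cannot go below 0.333. The fit was tested on simulated data.

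Dishes of a line come from the same cells, so the cell line pairs the treatments. Deviations of same-line libraries from their group means correlated at 0.0165 to 0.0537 across genes in WT and 0.246 to 0.349 in null lines. A fit with the line as a block was therefore run beside the main one. Other settings were a pseudocount of 0.1, no filter, a filter at 5 FPKM, quantile normalization, summed loci of a name, the groups compared alone and each line left out; those run on the unnamed Dppa2 locus were chosen after seeing the data.

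Members and lists were chosen with earlier results of these data known. All members are named; from each list, at most 4 called genes with the largest change; for likeness, the 3 genes with the highest r, of which 1 is not reported here; and neighbours on the chromosome. A locus is called partial where it covers less of the annotated gene than it leaves out. Annotation was GENCODE M21 (GRCm38), and coordinates count from 1.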

Additional observations from a re-analysis of the deposited data

Results flagged for a closer look

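The unnamed locus over the first exon of Dppa2-202, which no test of named genes uses, was above its level in the SB libraries in every Activin group. Its mean was 0.274 FPKM in WT lines and 0.130 FPKM in null lines in SB. After Activin it was 3.18 FPKM in WT lines at 3 h, 2.72 FPKM in WT lines at 6 h, 0.875 FPKM in null lines at 3 h and 1.66 FPKM in null lines at 6 h (n = 2 lines each). The origin of these reads was not tested.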

How the results depend on the processing

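The counts of members called depended on the fit. With the replicate block (the cell line as a block), 5 and 6 members were called in WT lines at 3 h and 6 h against SB. Of all genes, 37.2 and 33.9% were then called. In null lines 4 were called at 3 h and 4 between 6 h and 3 h, beside 29.5 and 13.4% of all genes. The cell line as a random effect changed no call between genotypes. With quantile normalization 4 were called in WT lines and 3 in null lines at 3 h, where 3071 and 2067 of all 12823 genes were called. With only the groups compared in the fit, 4 and 5 were called in WT lines at 3 h and 6 h. Of all 12823 genes, 3697 and 3119 were then called. In that fit 0 members were called between 6 h and 3 h in WT lines, in null lines at 6 h and between 6 h and 3 h in null lines. Of all genes, 63, 127 and 0 were called in these comparisons. A filter at 5 FPKM gave 1 in null lines at 3 h, where fewer genes were tested and 1431 of 7829 were called. Leaving out each line in turn gave 0 to 5 members in WT lines at 3 h, 0 to 5 at 6 h and 0 to 1 between them. In null lines it gave 0 to 1 at 3 h, 1 to 5 at 6 h and 0 between them. Between genotypes it gave 0 to 6 in SB, 0 to 2 at 3 h, 0 to 6 at 6 h and 0 to 5 on the line means. Without either null line, Tfap2c, Dppa2 and Ifitm3 were called in WT lines at 3 h and Tfap2c and Dppa2 at 6 h (adjusted p from 0.0018 to 0.038), and Dppa5a in null lines at 3 h (0.046 without line 25 and 0.0068 without line 39). Where a line was left out, the lone line of its genotype was assumed to vary like the others. Apart from the named settings, the cause of these moves was not tested.

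Some small genotype differences changed sign. Dppa5a at 6 h was 0.18 and became −0.0044 after quantile normalization. With a line left out, Prdm1 in SB ranged from −0.087 to 0.46, Dppa2 at 6 h from −0.58 to 0.018 and Dppa4 at 3 h from −0.42 to 0.060. No other of the 69 followed single-gene results reversed under any setting, and the pseudocount of 0.1, no filter and summed loci changed 1 call between them (Tfap2c in WT lines at 6 h, −0.90, adjusted p = 0.04 with a pseudocount of 0.1).

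Over all genes, 2882, 2039 and 325 were called in the 3 WT comparisons (3 h, 6 h, and 6 h against 3 h) and 1749, 1718 and 594 in the 3 null comparisons. With the replicate block these were 4772, 4342, 852, 3788, 4026 and 1724. The groups compared alone gave 3119 in WT lines at 6 h, 63 between 6 h and 3 h in WT lines and 176, 127 and 0 in null lines, and 0 between genotypes. Without single lines they ranged from 137 to 4354, 89 to 3897, 0 to 456, 243 to 2058, 384 to 1779 and 0 to 0. Between genotypes 40, 49 and 27 were called, and 0 to 2047, 0 to 136 and 0 to 1508 without single lines. A pseudocount of 0.1 gave 32 at 3 h. On line means single lines left out gave 0 to 1193 and the filter at 5 FPKM gave 9. For the difference in the 3 h response, quantile normalization gave 2 and the block 3. In WT lines at 3 h, 1622 genes rose and 1260 fell, against 1372 and 1699 after quantile normalization; at 6 h 1230 rose and 809 fell, against 1160 and 1328.

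Depth is unknown in reads. Values near 1 FPKM, as for Tfap2c, Dazl and the locus upstream of Dppa2, rest on few reads, and the null Activin libraries had the lowest estimates of relative depth. With 2 lines per genotype, line and genotype cannot be told apart, and no dish controls for the change of medium.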
